A study of Bos taurus and Ovis aries and Capra hircus with 27 samples.

Results

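Among the 17138 goat gene models with a whole protein and no copy suffix, 34 (0.198%) encode a protein that ends in serine-lysine-leucine, alanine-lysine-leucine or serine-arginine-leucine, written SKL, AKL and SRL in the one-letter code. These endings are the classical C-terminal signal for import into peroxisomes. The members were chosen by this ending alone in the deposited goat protein file, and no expression value entered the choice. Of the 34, 19 end in SKL, 10 in AKL and 5 in SRL. The expression table lists 22131 goat models, of which 3916 have no whole protein in the protein file, so that further models with such an ending may be missing here.

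The series compares heart, liver and kidney between cattle, goat and sheep, and goat alone is treated here. The goats were of a strain called indigenous and about 3 years old, and described by the study as unrelated adult females. Each tissue gave 3 strand-specific mRNA libraries, 9 in all, and libraries with the same number were taken as from the same animal. The study states that the 3 goat heart samples are also held under a further set of sample records. Any difference in handling between heart and the other tissues cannot be told apart from tissue. Levels are FPKM, fragments scaled to the length of the transcript and to the mapped total of the library, which permits comparison between genes. The tables hold no read counts, so depth is unknown, and the summed FPKM of a library was between 574638 and 828807.

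Peroxisomes are single-membrane organelles that shorten very long and branched fatty acids, make bile acid and ether lipid intermediates, and run oxidases that release hydrogen peroxide. Most of their matrix proteins carry the C-terminal tripeptide, which the receptor PEX5 binds in the cytosol and brings to the organelle. Liver and kidney are the tissues classically known as rich in peroxisomes. In bulk tissue, fewer cells of a type and less RNA per cell cannot be told apart.

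No gene symbol could be attached, because the identifiers carry no names and no protein reference was used. The members are therefore described by conserved sequence signatures of enzyme families, searched in their proteins and in all 18259 whole proteins of the file. A signature was found in 27 members. It was shared by at most 5 proteins of the file in all but 3 cases, which were the trypsin-like active site (63 proteins), the cytokine receptor box (25) and the CCHC zinc knuckle (23). Signatures and groups were chosen after sequences and values had been seen, and a family name given below is not a gene name. A small number of matches can reflect a narrow signature and does not count a family. The alpha-amylase signature matched 1 protein, while a neighbor 88.8% identical to it was not matched. The location of a protein in the cell was not measured.

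By these signatures, 9 members are acyl-CoA enzymes, 6 are oxidases and related enzymes, 2 belong to sterol and ether lipid synthesis and 3 are proteases. These 20 members fall in families with known peroxisomal enzymes. A further 7 carry other signatures, and 7 carry none of those searched. The tripeptide thus also ends proteins whose families are not known for peroxisomes, such as an alpha-amylase and a protein with BTB and kelch repeats, and the label peroxisomal is used for the ending and not for each protein. The 34 models lie on 33 scaffolds of the goat assembly, and their proteins are between 101 and 989 residues long. Their median length is 418.5, against 337 over all models with a protein and no copy suffix. Only 11 of the 34 proteins begin with methionine, against 56.8% of all models with a protein and no copy suffix, and a protein without it may be incomplete at that end.

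The tissues were checked with 2 proteins found by signature. A myosin heavy chain (GOAT_ENSP00000386041) stood at 922, 524 and 434 FPKM in the heart libraries and at no more than 0.00867 elsewhere. An albumin-family protein (GOAT_ENSBTAP00000022763) stood at 11676 and 9247 FPKM in liver 2 and 3, at no more than 76.2 in kidney and at no more than 0.0668 in heart. It is listed at 0 in liver 1. A value of exactly 0 in these tables can therefore be a failed estimate, and a gene at 0 throughout a tissue is only said to be listed at 0, with no fold change. Kidney and the cell type lists by gene symbol could not be checked.

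The members together reached their highest level in liver. The summed level of the 34 was 2651, 1834 and 1359 FPKM in the liver libraries, 842, 927 and 812 in heart, and 413, 617 and 604 in kidney. These sums did not overlap between tissues. The members made up between 0.219% and 0.461% of the library sum in liver, between 0.098% and 0.115% in heart and between 0.0637% and 0.102% in kidney, so that on this scale liver was apart and heart and kidney overlapped. In liver the thiolase described below held 29.3% of the summed level. Liver 1 held the highest of the 3 liver values in 9 of the 11 liver-elevated members counted below. Among the 26 members tested below it did so in 16, with GOAT_ENSP00000381227, listed at 0 in all 3, counted in. The share over all genes was not counted. The albumin-family protein is missing from the FPKM of the same library, and its part in these levels was not tested.

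**Figure D1:**
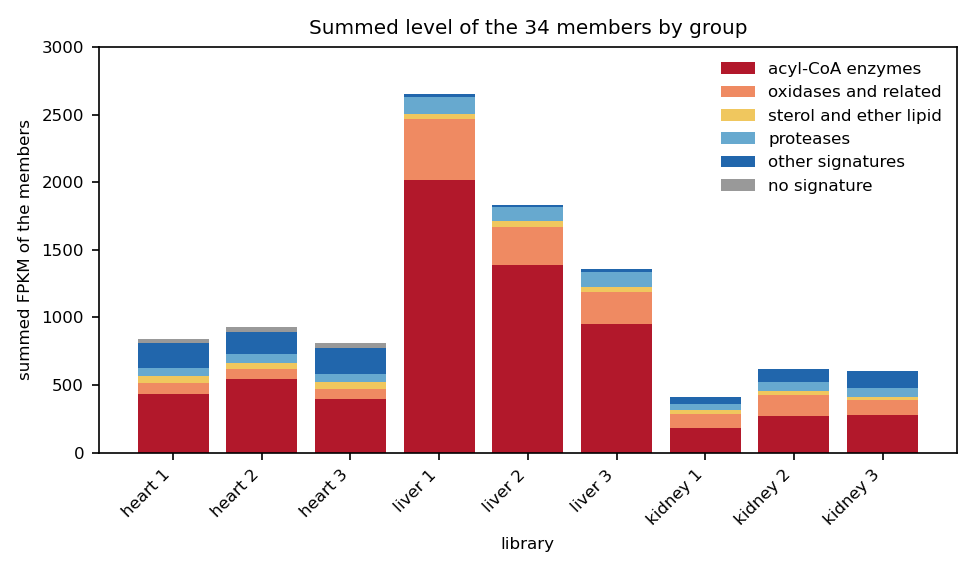
Summed FPKM of the 34 members (vertical axis) in each of the 9 goat libraries (horizontal axis), stacked by the groups named in the text. The 3 liver bars, at 2651, 1834 and 1359, stand above all heart and kidney bars, and acyl-CoA enzymes make up most of each liver bar.

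Of the 34 members, 26 passed the filter of more than 0.5 FPKM in at least 3 of the 9 libraries and were tested with limma among 13634 goat genes. A member is called where its Benjamini-Hochberg adjusted p over all genes tested was at most 0.05. Of the 26, 4 members (the urate oxidase, the hydroxy acid oxidase, the BTB and kelch protein and GOAT_ENSP00000381227) passed the filter through a single tissue and had to differ, so their differences are given below as a description, without a p-value. The other 8 members were at no more than 1.68 FPKM in any library.

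Liver was higher than kidney in 14 of the 34 members, where 13.4% of all genes tested were called in that direction, and lower in 5, where 51.6% were called. Liver was higher than heart in 12, against 19.6% of all genes, and lower in 5, against 29.6%. Heart was higher than kidney in 7, against 17.9%, and lower in 7, against 45.3%. As shares of the 34 members, these counts are 41.2%, 14.7%, 35.3%, 14.7%, 20.6% and 20.6%. Without the 4 members that passed through a single tissue, the counts were 12, 5, 10, 3, 5 and 7 in the same order. The shares over all genes were not computed with this exclusion. As shares of the 34, members were called higher in liver more often than all genes in both comparisons, and higher in kidney less often. The 34 include 8 untested members, which could not be called. Over the 26 tested, whose choice depends on their levels, the shares are 53.8%, 19.2%, 46.2%, 19.2%, 26.9% and 26.9% in the same order. Both statements hold for these shares too.

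A model that passed against both other tissues is called elevated. Liver-elevated were 11 members (32.4% of 34, against 9.59% of all genes tested). All 11 are among the 20 with signatures of the first 4 groups, which were formed after values had been seen. Heart-elevated were 4 (11.8% against 14.5%) and kidney-elevated 4 (11.8% against 34.2%). The member shares include the 8 untested members. Over the 26 tested, whose choice depends on their levels, they are 42.3%, 15.4% and 15.4%, so that for heart the share lies below or above that of all genes with the denominator. Without the members that passed through a single tissue, 9 liver-elevated, 2 heart-elevated and 4 kidney-elevated members remain, and no share over all genes was computed for this exclusion. In the 11 liver-elevated members the lowest liver library was above the highest library of both other tissues. This describes members already chosen by their call, and the share of all genes with such a separation was not counted. Leaving out a liver library left 8 to 9 of the 11. The urate oxidase and the hydroxy acid oxidase were not fitted then, since only 2 libraries remained above the filter level, and the Lon protease was also lost without liver 1.

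The median log2 fold change over the members tested was 0.87 for liver minus kidney and −0.73 for heart minus liver, where the medians over all genes tested were −0.69 and 0.10. For heart minus kidney it was −0.04, against −0.55. Kidney libraries were thus higher across genes in general on the deposited scale. When libraries were instead scaled by a median ratio, that is by the median over genes of the ratio to the geometric mean library, the medians over all genes lay between −0.04 and 0, and those of the members moved to 1.67, −0.95 and 0.56. The number of members higher in heart than in kidney was then 12 and that of members lower was 3. Gained were the acyl-CoA oxidase, Lon protease, epoxide hydrolase, the quinone oxidoreductase and the patatin-like phospholipase. The liver-elevated count was 12 under this scaling, while the kidney-elevated count fell to 1.

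**Figure D2:**
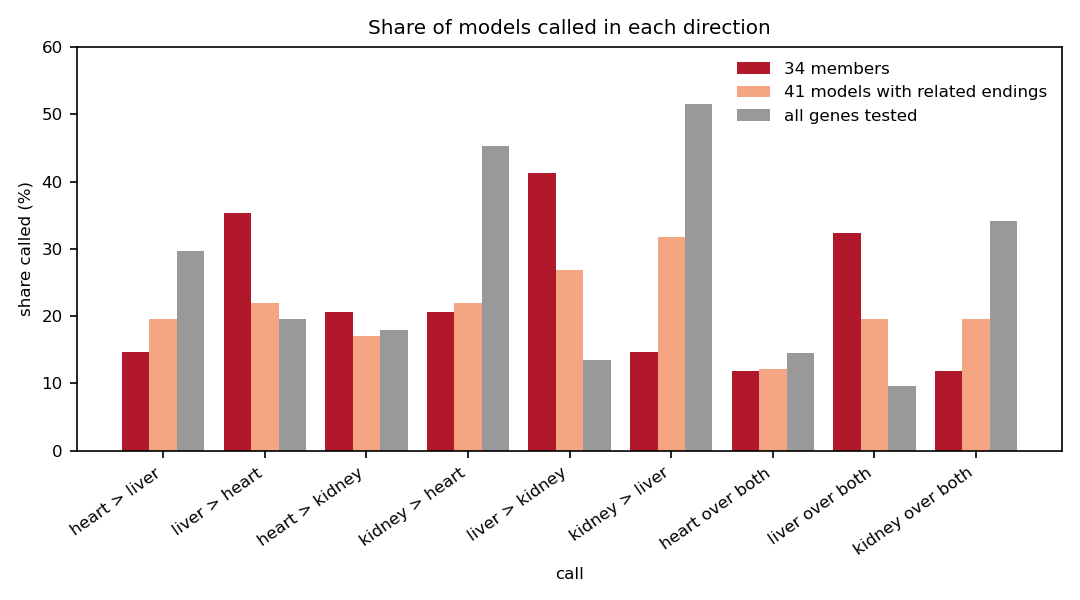
Share of models called (vertical axis, %) in each direction and for elevation over both other tissues (horizontal axis), for the 34 members (26 tested), for 41 models with related endings (29 tested) and for all 13634 genes tested, each as a share of the number named. The members reach 41.2% for liver over kidney and 32.4% for liver over both, against 13.4% and 9.59% of all genes.

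**Figure D3:**
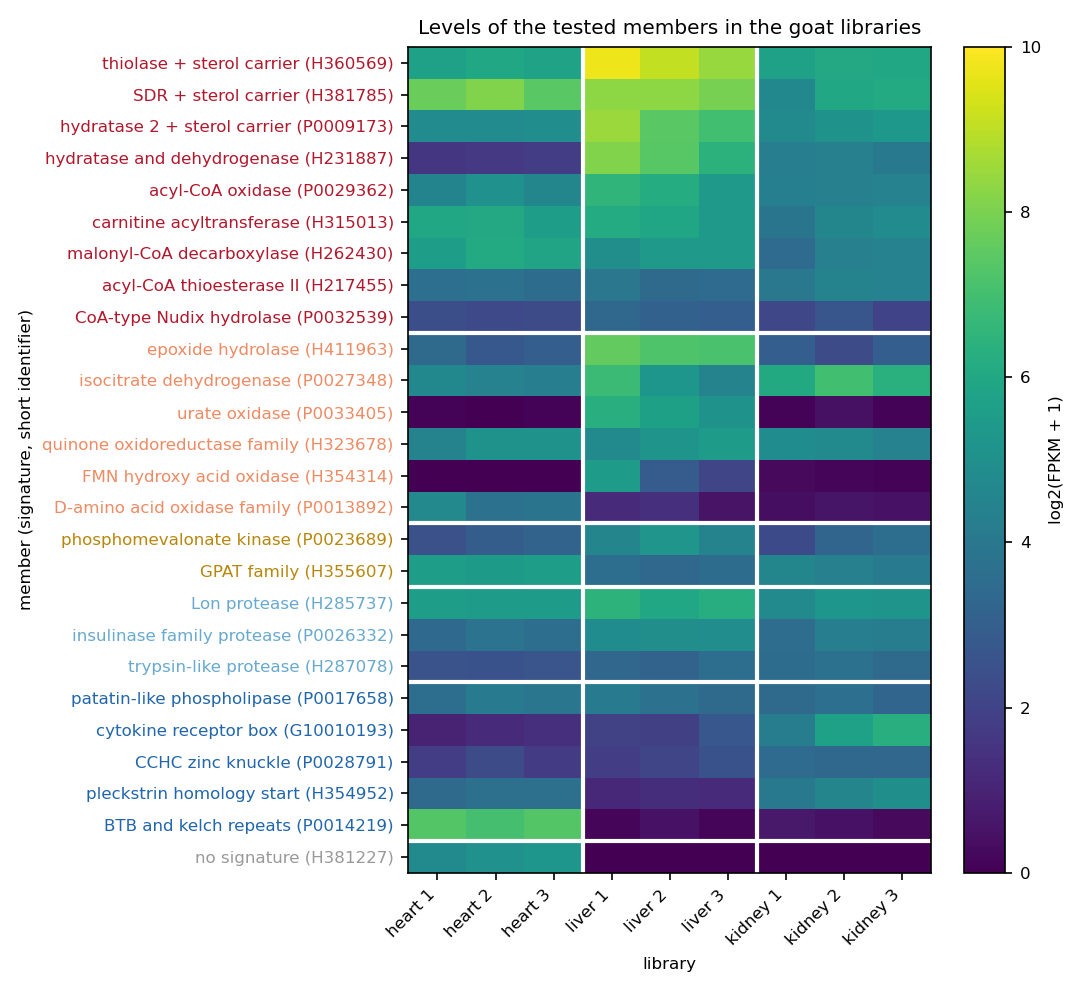
Level of the 26 tested members (rows, colored and ordered by group, labelled by signature) in the 9 libraries (columns) as log2(FPKM + 1), with dark colors low. In the short identifiers P stands for a cattle protein, H for a human protein and G for a predicted model. The upper rows are brightest in the liver columns, as for the thiolase with a sterol carrier domain, and a few lower rows are bright in heart or kidney alone.

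All 9 acyl-CoA enzymes were tested, and 8 of them were higher in liver than in kidney. Liver-elevated were 5, kidney-elevated 1 and heart-elevated 0. Over all genes tested 13.4% were higher in liver than in kidney, and 9.59%, 34.2% and 14.5% were elevated in liver, kidney and heart. The groups were formed after values had been seen, so these counts are a description. Their summed level was 2018, 1386 and 949 FPKM in liver, 435, 545 and 398 in heart and 183, 269 and 278 in kidney. The families of this group include enzymes that shorten fatty acids inside the peroxisome, that pass on acyl groups, and that cleave or trim CoA compounds. What each member does was not measured.

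The most abundant member in liver was the thiolase with a sterol carrier domain (GOAT_ENSP00000360569, ending AKL, scaffold 595, 5448709-5545597, plus strand). A thiolase of this kind makes the last cut of branched-chain and bile acid side-chain oxidation, and the sterol carrier domain binds lipids. It stood at 854, 541 and 355 FPKM in liver, at 51.8, 61.3 and 53.5 in heart and at 52.2, 65.1 and 62.6 in kidney. Every liver library was above all others, while heart and kidney overlapped. The log2 fold change was 3.18 ± 0.29 (SE) for liver minus kidney (adjusted p = 1.79e-05) and −3.28 ± 0.29 for heart minus liver (adjusted p = 1.38e-05). On its own it made up 29.3% of the summed FPKM of all members in liver.

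In the acyl-CoA group, 2 members carry the middle steps, hydration and dehydrogenation. The protein with enoyl-CoA hydratase and 3-hydroxyacyl-CoA dehydrogenase signatures (GOAT_ENSP00000231887, SKL, scaffold 1510, 197245-261507, plus strand) stood at 274, 169 and 85.8 FPKM in liver, at 18.5, 19.5 and 15.4 in kidney and at 1.97, 2.17 and 2.52 in heart. Its tissues were fully separated, with liver highest and heart lowest. Heart minus liver was −5.63 ± 0.36 (adjusted p = 1.27e-06), and heart minus kidney was −2.54 ± 0.36 (adjusted p = 0.000245). The hydratase 2 with a sterol carrier domain (GOAT_ENSBTAP00000009173, AKL, scaffold 995, 1596416-1644459, plus strand), a family that serves branched-chain and bile acid intermediates, stood at 359, 174 and 123 FPKM in liver, at 27.6, 27.2 and 29 in heart and at 26, 34.3 and 39.1 in kidney. Liver alone was apart, by 2.56 ± 0.35 over kidney (adjusted p = 0.000201).

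The first step, the peroxide-forming desaturation, is made by acyl-CoA oxidases. The member of this family (GOAT_ENSBTAP00000029362, SKL, scaffold 1101, 1113104-1132494, plus strand) stood at 92.3, 71.6 and 40.2 FPKM in liver, at 22, 32 and 23.1 in heart and at 18.9, 19.7 and 20.8 in kidney. All liver libraries were above the others, by 1.65 ± 0.29 over kidney (adjusted p = 0.000984), with heart minus liver at −1.31 ± 0.29 (adjusted p = 0.00479). A second protein of the file with this signature ends in ARL and is no member (GOAT_ENSBTAP00000005472). It stood at 234, 143 and 80.9 FPKM in liver, at 15.6, 13.4 and 14.9 in heart and at no more than 1.87 in kidney. Both proteins stood highest in liver, and the heart libraries of the one ending in ARL were all above its kidney libraries.

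The third protein with a sterol carrier domain was not liver-elevated. It joins a short-chain dehydrogenase signature to that domain (GOAT_ENSP00000381785, SKL, scaffold 356, 1398915-1457444, plus strand) and stood at 315, 313 and 244 FPKM in liver, at 207, 274 and 171 in heart and at 24.4, 60.7 and 68 in kidney. Liver and heart overlapped and both were above kidney. Liver minus kidney was 2.60 ± 0.37 (adjusted p = 0.000248), heart minus kidney 2.17 ± 0.37 (adjusted p = 0.000746) and heart minus liver −0.44 ± 0.37 (adjusted p = 0.365). In heart it was the most abundant member, with 25.1% of the summed FPKM. The 3 proteins with a sterol carrier domain align with each other over 103 to 120 residues at an identity of between 35% and 40.2%.

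Heart and liver were also both called above kidney in 2 enzymes around carnitine and malonyl-CoA. Carnitine acyltransferases pass shortened acyl groups to carnitine for export to mitochondria. The member of this family (GOAT_ENSP00000315013, AKL) stood at 62.2, 64.2 and 47.9 FPKM in heart, at 69.2, 57.6 and 41.5 in liver and at 13.7, 23.1 and 27.7 in kidney, and heart minus liver was 0.07 ± 0.29 (adjusted p = 0.871). Malonyl-CoA decarboxylase removes the inhibitor of mitochondrial carnitine transfer. Its member (GOAT_ENSP00000262430, SKL) stood at 46.6, 68.5 and 56.4 FPKM in heart, at 30.1, 41.7 and 41.9 in liver and at 10.4, 19.4 and 20.9 in kidney.

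For the decarboxylase every heart library was above every liver library, and every liver library above every kidney library. Heart minus kidney was 1.74 ± 0.28 (adjusted p = 0.000579) and liver minus kidney 1.16 ± 0.28 (adjusted p = 0.00558). Heart minus liver, 0.58 ± 0.28, did not pass (adjusted p = 0.122), but with the animal number as a block it did, at 0.58 (adjusted p = 0.0199), and without kidney 1 it did as well (adjusted p = 0.0499).

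The remaining acyl-CoA enzymes cleave or trim CoA compounds and were lower in level. The CoA-type Nudix hydrolase (GOAT_ENSBTAP00000032539, SKL) stood at 9.03, 7.63 and 7.03 FPKM in liver, at no more than 4.27 in heart and at no more than 5.46 in kidney, with liver minus kidney at 0.87 ± 0.21 (adjusted p = 0.00585). The acyl-CoA thioesterase II (GOAT_ENSP00000217455, SKL), which frees fatty acids from CoA, was the only acyl-CoA enzyme below kidney in both other tissues. It stood at 15.1, 21.5 and 20.5 FPKM in kidney, at 11.7, 12.2 and 10.6 in heart and at 14.7, 10 and 10.3 in liver. Liver minus kidney was −0.66 ± 0.21 (adjusted p = 0.0203) and heart minus kidney −0.67 ± 0.21 (adjusted p = 0.0204). Both calls depend on scaling, since dividing by the median ratio turned liver minus kidney to 0.18 and gave −0.02 for heart minus kidney. They were also lost when kidney 2 was left out, at −0.57 in both, or kidney 3, at −0.60 and −0.61. Leaving out heart 3 (−0.61) ended the call against heart, and leaving out liver 2 (−0.57) or liver 3 (−0.59) that against liver.

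**Figure D4:**
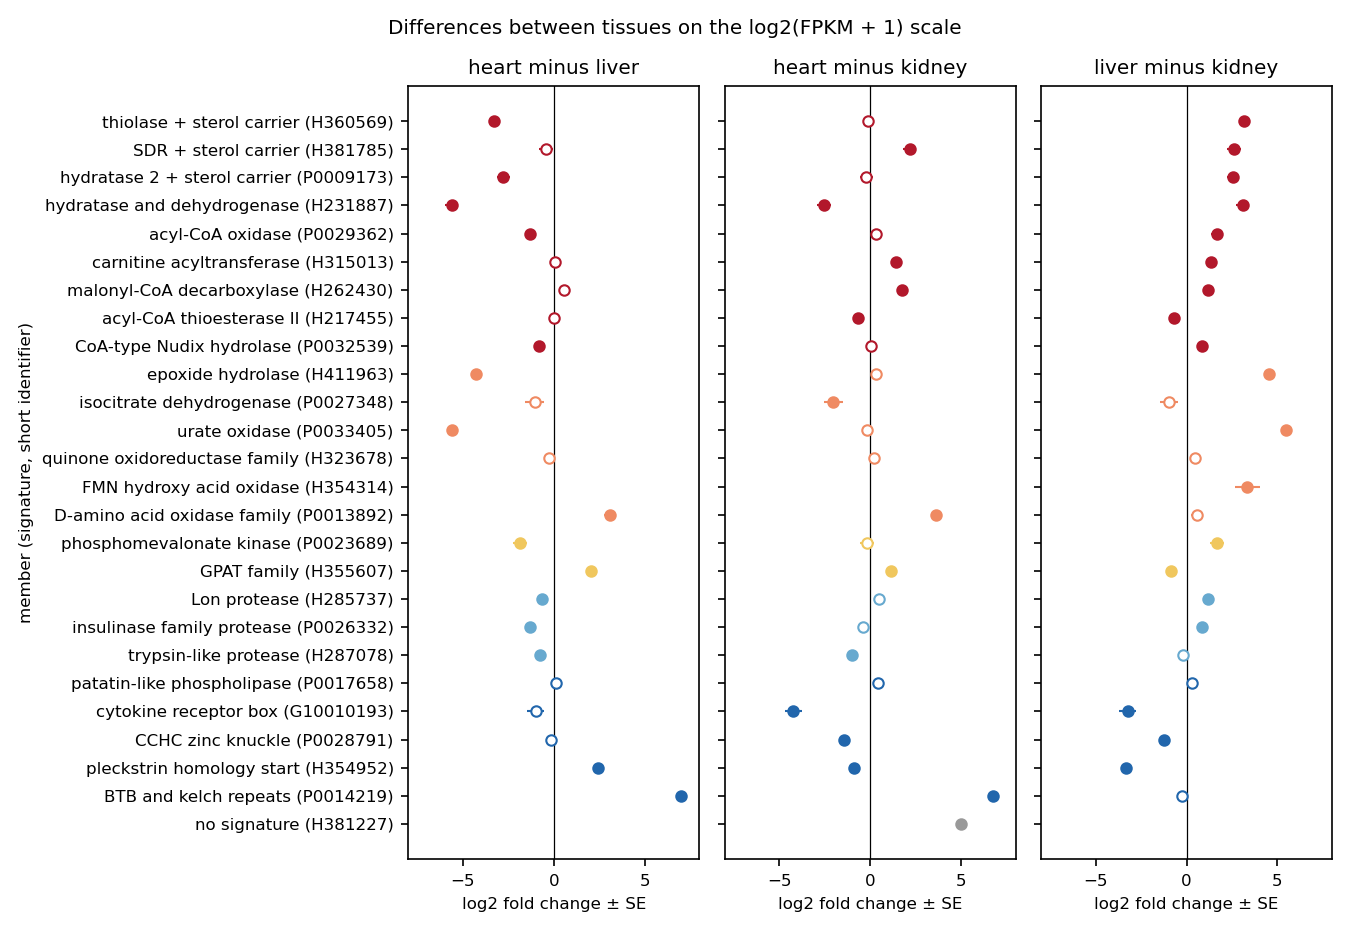
Log2 fold change on the log2(FPKM + 1) scale (horizontal axes, ± SE, often smaller than the marker) of the 26 tested members (rows, colored by group) for heart minus liver, heart minus kidney and liver minus kidney. Filled points passed an adjusted p of 0.05 in limma, open points did not, and a point is left out where a tissue is listed at 0. Filled points of the 4 members that passed the filter through a single tissue had to differ and are a description only. Of the 9 acyl-CoA enzymes, 5 have filled points left of 0 in the first panel and 8 have filled points right of 0 in the last.

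Among the 6 oxidases and related enzymes, 3 were liver-elevated, 1 was heart-elevated and none was kidney-elevated. Of all genes tested, 9.59%, 14.5% and 34.2% were. The urate oxidase and the hydroxy acid oxidase among the 3 passed the filter through liver alone and had to differ, so this count is a description. Urate oxidase, which degrades uric acid and forms hydrogen peroxide, was close to restricted to liver in level (GOAT_ENSBTAP00000033405, SRL, scaffold 55, 181496-203253, plus strand). It stood at 77.1, 50.7 and 34 FPKM in liver, at no more than 0.0817 in heart and at no more than 0.36 in kidney. Liver minus kidney was 5.48 ± 0.27 as a description, a difference on the log2(FPKM + 1) scale that understates the ratio of such low levels.

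The FMN-dependent alpha-hydroxy acid oxidase belongs to a family that oxidizes glycolate and related acids (GOAT_ENSP00000354314, SRL, scaffold 659, 915024-930243, minus strand). It stood at 45.2, 6.43 and 3.3 FPKM in liver, at 0.181, 0.109 and 0.0625 in kidney, and is listed at 0 in all heart libraries. Liver 1 was far above the other livers, and liver minus kidney was 3.35 ± 0.69 as a description. A second protein with the same signature ends in SKI and is no member (GOAT_ENSBTAP00000053733, 47.9% identical). That protein stood at 190, 78.3 and 62.9 FPKM in liver, at no more than 0.169 in kidney and is listed at 0 in heart.

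Epoxide hydrolase, which opens lipid epoxides to diols, was the third liver-elevated enzyme of this group (GOAT_ENSP00000411963, SKL, scaffold 1376, 1742811-1808622, minus strand). It stood at 192, 150 and 139 FPKM in liver, at 9.88, 5.7 and 7.04 in heart and at 6.88, 4.06 and 6.9 in kidney. Liver was apart by 4.55 ± 0.26 from kidney (adjusted p = 8.32e-07), with heart minus liver at −4.26 ± 0.26 (adjusted p = 9.55e-07).

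The D-amino acid oxidase family member went the other way (GOAT_ENSBTAP00000013892, SKL, scaffold 524, 1856271-1873444, plus strand). Enzymes of this family oxidize D-amino acids with release of hydrogen peroxide. It stood at 25.3, 12.5 and 13.4 FPKM in heart, at 1.37, 1.61 and 0.432 in liver and at 0.308, 0.501 and 0.384 in kidney. Heart was above all other libraries, by 3.06 ± 0.31 over liver (adjusted p = 2.94e-05) and 3.63 ± 0.31 over kidney (adjusted p = 9.24e-06). Without heart this member passes the filter only narrowly, with kidney 2 at 0.501 FPKM against the level of 0.5. The other goat protein with this signature ends in SHL (GOAT_ENSBTAP00000025068) and is listed at 0 in heart. Its liver values were 33.9, 1.3 and 0.991 FPKM, with liver 1 again far above the others. Without liver 3 the member itself was also called higher in liver than in kidney, at 0.83 (adjusted p = 0.0348).

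In this group, 2 members supply or use reducing equivalents. The NADP-type isocitrate dehydrogenase (GOAT_ENSBTAP00000027348, AKL) stood at 66.9, 126 and 79.9 FPKM in kidney, at 111, 37.4 and 21.1 in liver and at 24.5, 20.5 and 18.2 in heart. Kidney was above heart (heart minus kidney −2.02 ± 0.51, adjusted p = 0.00693), and liver overlapped both. After division by the median ratio, heart minus kidney was −1.34 and was not called (adjusted p = 0.0842). Without liver 1, liver was also called below kidney, at −1.61 (adjusted p = 0.00346), and without liver 3 heart was called below liver, at −1.58 (adjusted p = 0.0198). Its closest goat protein, 69.5% identical and ending GQQ (GOAT_ENSP00000331897), was highest in heart, at 466, 262 and 271 FPKM. The quinone oxidoreductase family member (GOAT_ENSP00000323678, SKL) stood between 20.5 and 44.2 FPKM in all 9 libraries and was called in no comparison on the deposited scale, with liver minus kidney at 0.48 ± 0.26 (adjusted p = 0.127). Its calls depend on scaling. After division by the median ratio liver minus kidney was 1.35 (adjusted p = 0.000379) and heart minus kidney 0.87 (adjusted p = 0.00383), quantile normalization gave 0.95 and 0.65, and both passed. With equal library sums heart minus liver passed at −0.72 (adjusted p = 0.0305), and without liver 1 liver minus kidney passed at 0.67 (adjusted p = 0.05).

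The lipid synthesis pair split between liver and heart. Phosphomevalonate kinase, an enzyme of isoprenoid and sterol synthesis (GOAT_ENSBTAP00000023689, SRL, scaffold 841, 629100-640215, minus strand), stood at 22.4, 36.6 and 21 FPKM in liver, at 4.53, 6.78 and 8.17 in heart and at 3.78, 8.71 and 11.4 in kidney. Liver was above both, by 1.69 ± 0.38 over kidney (adjusted p = 0.00342), with heart minus liver at −1.87 ± 0.38 (adjusted p = 0.00256). The glycerone-phosphate acyltransferase family member, whose kind starts ether lipid synthesis (GOAT_ENSP00000355607, AKL, scaffold 1528, 381075-408396, minus strand), stood at 46.5, 42.3 and 46.6 FPKM in heart, at 22.8, 19.4 and 16.5 in kidney and at 11.2, 9.39 and 10.6 in liver.

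The acyltransferase tissues were fully separated, heart highest and liver lowest. Heart minus liver was 2.02 ± 0.18 (adjusted p = 1.18e-05), heart minus kidney 1.17 ± 0.18 (adjusted p = 0.000361) and liver minus kidney −0.85 ± 0.18 (adjusted p = 0.00241). The last of these was not called after division by the median ratio (adjusted p = 0.995).

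All 3 proteases were called lower in heart than in liver, where 19.6% of all genes tested were. The counts of this and the other groups are a description, as the groups were formed after values had been seen. Lon protease, which degrades damaged matrix proteins (GOAT_ENSP00000285737, SKL), stood at 86.8, 61 and 74.3 FPKM in liver, at 48.1, 45.2 and 43.4 in heart and at 25.5, 36.8 and 35 in kidney. Its tissues did not overlap, with liver minus kidney at 1.17 ± 0.21 (adjusted p = 0.000945) and heart minus liver at −0.68 ± 0.21 (adjusted p = 0.0218). The latter was lost without heart 2 (−0.67), heart 3 (−0.64) or liver 1 (−0.56). Heart minus kidney, 0.49 ± 0.21, did not pass (adjusted p = 0.062). It passed without liver 1 (adjusted p = 0.0485), after division by the median ratio (1.16, adjusted p = 0.00201) and after quantile normalization (0.80, adjusted p = 0.00215). The other goat protein with the Lon signature, ending VGR (GOAT_ENSP00000353826), stood at 22.8, 28.5 and 50.1 FPKM in liver and at 29.2, 33.1 and 29.9 in heart, which overlapped.

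The insulinase family protease (GOAT_ENSBTAP00000026332, AKL), of a family that cuts small peptides, was even in liver at 28, 30.1 and 28.8 FPKM, and stood at 9.78, 13 and 11.1 in heart and at 10.8, 18.6 and 18 in kidney. It was liver-elevated, with heart minus liver at −1.29 ± 0.23 (adjusted p = 0.00116) and liver minus kidney at 0.87 ± 0.23 (adjusted p = 0.00777). Without kidney 1, heart was also called below kidney, at −0.66 (adjusted p = 0.0165), as with equal library sums, at −0.78 (adjusted p = 0.0163). The trypsin-like protease (GOAT_ENSP00000287078, SKL) stood at 4.89, 4.78 and 5.23 FPKM in heart, at 8.8, 8.11 and 11.3 in liver and at 10.6, 12.2 and 9.96 in kidney. Heart was below both other tissues, by −0.79 ± 0.18 against liver (adjusted p = 0.00513) and with mean levels of 4.97 ± 0.232 FPKM in heart and 11 ± 1.17 in kidney (SD, n = 3, limma adjusted p = 0.00105). The difference from kidney depends on scaling, since after division by the median ratio heart minus kidney was −0.39 (adjusted p = 0.0563), and liver minus kidney then turned from −0.21 to 0.61.

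Of the 7 members with other signatures, 5 were tested, and none of them was called higher in liver than in either tissue on the deposited scale. Of all genes tested, 13.4% were called higher in liver than in kidney and 19.6% higher in liver than in heart. The protein with BTB and kelch repeats, a pair of domains often found in adaptors of ubiquitin ligases, was nearly confined to heart (GOAT_ENSBTAP00000014219, SKL, scaffold 39, 109562-123355, plus strand). It stood at 159, 132 and 161 FPKM in heart and at no more than 0.62 in any liver or kidney library. As a description, heart minus liver was 6.97 ± 0.19 and heart minus kidney 6.76 ± 0.19. This protein held 17.7% of the summed FPKM of the members in heart.

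Kidney was highest in 3 members of this group, all of them kidney-elevated, where 34.2% of all genes tested were. The protein with a cytokine receptor box (goat_GLEAN_10010193, AKL, scaffold 1221, 647021-667272, plus strand) stood at 17.8, 51.9 and 77.3 FPKM in kidney, at 2.96, 2.69 and 5.58 in liver and at 0.986, 1.31 and 1.56 in heart. Heart minus kidney was −4.23 ± 0.47 (adjusted p = 5.38e-05) and liver minus kidney −3.22 ± 0.47 (adjusted p = 0.00029). Every liver library was above every heart library, but heart minus liver, −1.01 ± 0.47, did not pass (adjusted p = 0.103). It passed with the animal number as a block (−1.01, adjusted p = 0.0341), without kidney 1 (adjusted p = 0.0131), with a pseudocount of 0.1 (−1.42, adjusted p = 0.0434), after division by the median ratio (−1.22, adjusted p = 0.0323) and with equal library sums (−1.31, adjusted p = 0.0486).

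The protein with a pleckstrin homology start (GOAT_ENSP00000354952, AKL, scaffold 840, 1280818-1336830, minus strand), a domain that binds membrane phosphoinositides, was high in kidney and heart and low in liver. It stood at 15.4, 22.4 and 30.8 FPKM in kidney, at 10.1, 12 and 11.9 in heart and at 1.21, 1.45 and 1.35 in liver. Liver minus kidney was −3.31 ± 0.24 (adjusted p = 3.78e-06) and heart minus liver 2.40 ± 0.24 (adjusted p = 3.02e-05). Heart minus kidney, −0.90 ± 0.24 (adjusted p = 0.00878), was −0.26 after division by the median ratio (adjusted p = 0.307). The CCHC zinc knuckle protein (GOAT_ENSBTAP00000028791, SKL) stood at 10.3, 9.26 and 8.81 FPKM in kidney and at no more than 4.79 in heart and liver. Its liver minus kidney difference of −1.24 ± 0.23 (adjusted p = 0.00136) became −0.48 after that division (adjusted p = 0.067).

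The patatin-like phospholipase (GOAT_ENSBTAP00000017658, SKL), of a family that releases fatty acids from phospholipids, was called in no comparison on the deposited scale. It stood between 8.62 and 16.3 FPKM in all 9 libraries, with heart minus kidney at 0.43 ± 0.22 (adjusted p = 0.12). After division by the median ratio this became 1.05 (adjusted p = 0.00732), and liver minus kidney, 0.31 ± 0.22, became 1.13 (adjusted p = 0.00567). The other 2 members of the group, both ending SKL, were not tested. An alpha-amylase (GOAT_ENSBTAP00000053597) is listed at 0 in 8 libraries and at 0.0457 FPKM in kidney 1, and an AIG1-type GTPase (GOAT_ENSP00000315474) was at no more than 0.481 FPKM.

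The amylase has an 88.8% identical neighbor on the same scaffold, GOAT_ENSP00000416142-D2, which also ends in SKL but carries a copy suffix. That copy stood at 152, 29.7 and 36.3 FPKM in liver, at 29, 27.2 and 34.1 in heart and at no more than 0.285 in kidney. Reads of the pair may have been assigned to either, so the level of the amylase is uncertain. No other member had a goat protein at 80% identity or more over at least 80% of its length.

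Of the 7 members with no signature, a single one was tested. GOAT_ENSP00000381227 (SKL, 678 residues, scaffold 802, 177838-522912, plus strand) stood at 26.7, 32.2 and 36.9 FPKM in heart and at no more than 0.0216 in kidney, and is listed at 0 in all liver libraries. Heart minus kidney was 5.01 ± 0.16 as a description. Lysine and glutamate make up 37.6% of its residues, the highest share among the members, whose other values lay between 5.35% and 21.8%.

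The other 6 with no signature were close to 0. GOAT_ENSBTAP00000006790 (SKL) and goat_GLEAN_10010280 (SRL) are listed at 0 in all libraries. GOAT_ENSBTAP00000020641 (AKL) reached 0.952 FPKM in heart 1 and 1.68 in kidney 3. GOAT_ENSP00000380055 (SRL) reached 0.263 in liver 2, GOAT_ENSP00000395220 (SKL) 0.0251 in liver 3, and goat_GLEAN_10012158 (AKL) 0.352 in kidney 2.

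By level, the order of the members differed between tissues. In liver the 6 highest means were those of the thiolase with a sterol carrier domain (583 ± 252 FPKM, SD, n = 3), the dehydrogenase with that domain (291 ± 40.6), the hydratase 2 (219 ± 124), the hydratase and dehydrogenase (176 ± 94.6), epoxide hydrolase (160 ± 28.2) and Lon protease (74.1 ± 12.9). From the second to the fifth of these, neighbors in the order differed by less than the larger of their SDs. In heart the order was the dehydrogenase with a sterol carrier domain (217 ± 52.6), the BTB and kelch protein (151 ± 16.6), carnitine acyltransferase (58.1 ± 8.89), malonyl-CoA decarboxylase (57.1 ± 11), the thiolase (55.5 ± 5.08) and Lon protease (45.5 ± 2.38). The third to the fifth of these differed in the same way by less than an SD. In kidney it was isocitrate dehydrogenase (90.9 ± 30.9), the thiolase (60 ± 6.84), the dehydrogenase with a sterol carrier domain (51 ± 23.3), the cytokine receptor box protein (49 ± 29.8), hydratase 2 (33.2 ± 6.62) and Lon protease (32.5 ± 6.06), and neighbors after the first differed by less than the larger SD.

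A further 41 models without copy suffix end in a related tripeptide, serine, alanine or cysteine followed by lysine, arginine or histidine and then leucine or methionine, the 3 endings of the members left out. The most frequent were SHL (14 models) and ARL (7). Of these, 29 were tested. Liver was higher than kidney in 11 (26.8% of 41, against 13.4% of all genes) and lower in 13 (31.7% against 51.6%), and 8 were kidney-elevated (19.5% against 34.2%) and 8 liver-elevated. The share of liver-elevated models was thus 19.5% with the related endings, between the 32.4% of the members and the 9.59% of all genes. The difference between the members and these models was not tested.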

How the data were processed

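Heart, liver and kidney of goat were each measured in 3 libraries, grouped by the sample titles. The authors made strand-specific (dUTP) mRNA libraries, mapped reads with TopHat and quantified them with Cufflinks (version 2.2.1 per the labels), and deposited log2 values, log2(FPKM + 1). The labels list the build UMD3.1 for all samples, while the study's methods name the goat assembly CHIR_1.0 for goat reads, and the protein file names no build. Positions are those in the headers of the deposited goat protein file and carry no exon annotation. That file ends in a cut entry, which was left out. Columns of goat heart were matched to titles by tissue and number.

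Levels were turned back to FPKM by raising 2 to each value and subtracting 1. Differences were tested with limma 3.58.1 in R 4.3.3 on the log2 values, with a mean per tissue, a variance trend and Benjamini-Hochberg adjustment over the 13634 genes above 0.5 FPKM in at least 3 of 9 libraries. The script was tested on simulated data. Proteins were compared with blastp 2.17.0. P-values measure the spread between these libraries. Alternatives were a pseudocount of 0.1, other filters and scalings, a minimum log2 fold change of 1, other sets of endings, a block for the number and leaving out each library.

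Libraries with the same number, which the titles give, deviated together: all 9 correlations of their deviations from the tissue means lay between 0.146 and 0.472, and those of differently numbered libraries between −0.417 and 0.134. The numbers were therefore taken to pair the samples, though a shared animal was not told apart from shared handling. The main fit leaves this pairing out, and the block for the number was an alternative. The members, lists and signatures were chosen with earlier results of these data known. Named are the members called with the largest changes, up to 8 per comparison and direction, the 6 highest in each tissue, and, beyond this rule, all other members. Lists fixed by gene symbol (peroxisomal pathways, peroxins, cell type markers) were not used, since no identifier could be matched to a symbol. The cattle and sheep tables were not used here.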

Additional observations from a re-analysis of the deposited data

How the results depend on the processing

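Without counts, depth is unknown, and 3 libraries per tissue limit the precision. The filter of the study (above 0.5 FPKM in over 80% of libraries) lowered the members higher in heart than in liver to 2, those higher in heart than in kidney to 4 and the heart-elevated to 1, since fewer members were tested. Counting models ending in SKL only gave 3 higher and 6 lower in heart than in liver, 4 lower in heart than in kidney, 7 higher and 2 lower in liver than in kidney, and 5 liver-elevated and 2 kidney-elevated. Adding the related endings gave 13 and 21, 14 and 16, and 25 and 18 for the same comparisons in the order higher, lower, with 9 heart-elevated, 19 liver-elevated and 12 kidney-elevated. Both sets differ from the 34 members in number, and the added models also differed in their calls. Of the models with related endings, 31.7% were lower in liver than in kidney, against 14.7% of the members. Division by the median ratio gave 12 higher and 3 lower in heart than in kidney, 2 lower in liver than in kidney and 1 kidney-elevated, and quantile normalization gave 13, 4, 2 and 1. The cause of these shifts was not tested. Requiring a log2 fold change of at least 1 left 4 lower in heart than in kidney, 3 lower in liver than in kidney and 2 kidney-elevated.

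Among differences called on the deposited scale or under the alternative, those reversed in sign were, for liver minus kidney, GOAT_ENSP00000217455 under the median ratio (0.18) and GOAT_ENSP00000287078 under the median ratio (0.61) and quantile normalization (0.50). With the replicate number as a block, 2 members were called in addition for heart minus liver, GOAT_ENSP00000262430 (0.58, adjusted p = 0.0199) and goat_GLEAN_10010193 (−1.01, adjusted p = 0.0341), and the block changed no other call of a member. Leaving out any single library, a pseudocount of 0.1, no filter, equal library sums and counting copies moved no count of members by over 1.5 times.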

Other observations

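A copy suffix marks 7 models that also end in SKL or AKL, which were left out by the rule. Of these, 4 are listed at 0 in all libraries. Besides the amylase copy described above, GOAT_ENSP00000311224-D3 stood at 27.8, 34.1 and 13.8 FPKM in liver, at 6.27, 4.65 and 4.33 in heart and at no more than 0.583 in kidney. It was higher in liver than in both other tissues, by 4.19 ± 0.31 on the log2 scale over kidney (limma, adjusted p = 4.38e-06), with heart minus liver at −2.03 ± 0.31 (adjusted p = 0.000504). GOAT_ENSBTAP00000051767-D2 was low in liver, at 5.93, 3.57 and 5.96 FPKM, against 33.8, 38.2 and 35.7 in heart and 31.6, 46.2 and 41.7 in kidney, with liver minus kidney at −2.74 ± 0.23 (adjusted p = 8.24e-06).

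The carnitine acyltransferase signature was shared by 4 goat proteins with other endings. GOAT_ENSP00000413575 stood at 99.6, 112 and 92.3 FPKM in liver and at no more than 8.85 in heart and kidney. GOAT_ENSP00000265641 stood at 47.8, 47.9 and 44.5 in liver, at 24.4, 42.3 and 55.1 in kidney and at no more than 5.9 in heart. GOAT_ENSBTAP00000019505 stood at 48.4, 53.6 and 45.5 in heart, at 32.7, 37 and 32.3 in liver and at no more than 18.1 in kidney, and GOAT_ENSBTAP00000022369 was at no more than 0.109 in any library.

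Of the isocitrate dehydrogenase signature, the 3 proteins with other endings were each highest in heart, where their lowest value was 122 FPKM and their highest elsewhere was 79.7, while the member ending AKL was lowest in heart in mean level, at 21.1 ± 3.22 FPKM (SD, n = 3).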
